A study of Mus musculus with 13 samples.

Results

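Heme synthesis genes were followed through thymic injury as a set of 9 genes: *Alas2*, *Alas1*, *Alad*, *Uros*, *Urod*, *Cpox*, *Ppox*, *Fech* and *Slc25a37*. They were chosen by name from the 53379 genes of the count table, and all 9 passed the filter on low counts that left 19984 genes tested. The data are bulk RNA-seq libraries of CD45− thymic cells, that is, the stroma, in which fibroblasts (FBs), endothelial cells (ECs) and thymic epithelial cells (TECs) are the main types. All mice were 2-month-old wild type C57BL/6, with no transgene or deletion in any group. The steady-state group (4 libraries) is untreated in the labels and PBS in the column names, and the other groups were taken 1, 4 or 7 days after sublethal total body irradiation (SL-TBI, 3 libraries each). Steady-state libraries are named here by the PBS day and replicate of their column. Nothing in the labels says whether a library holds 1 mouse or several, so p-values measure the spread between libraries. CD45 was depleted on beads, red blood cells were lysed with ACK buffer and the cells were then sorted, so mature red cells and leukocytes were meant to be removed.

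Heme is built from glycine and succinyl-CoA in a path that starts in the mitochondrion, passes through the cytosol and returns to the mitochondrion, where iron is inserted. The first step has 2 enzymes: ALAS1, made in nearly all cells, and ALAS2, made in developing red cells. The middle enzymes, ALAD, UROS, UROD, CPOX and PPOX, are needed in every cell that makes heme. Ferrochelatase (FECH) inserts the iron, and SLC25A37 (mitoferrin 1) carries iron into the mitochondrion of red cell precursors. *Alas2* and *Slc25a37* are the genes tied most closely to erythroid cells. The other 6 serve as the ubiquitous steps. *Fech*, as the last step of the path, was counted with them by function. Its level after irradiation fell with those of *Alas2* and *Slc25a37*.

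The promoter of *Alas2* is shown beside those of a middle step with a GATA motif (*Cpox*) and of one without (*Urod*), because GATA factors are the textbook regulators of erythroid heme genes. Each stretch runs from 250 to 51 bases before the RefSeq start of the gene, 5′ to 3′ on the strand of the gene, with build GRCm38.p6. *Alas2* lies at chrX:150547167-150547366 on the plus strand, *Cpox* at chr16:58669958-58670157 on the plus strand and *Urod* at chr4:116994464-116994663 on the minus strand. Capitals mark the GATA motif, GATAA read on either strand, so TTATC is the same motif on the other strand.
Alas2: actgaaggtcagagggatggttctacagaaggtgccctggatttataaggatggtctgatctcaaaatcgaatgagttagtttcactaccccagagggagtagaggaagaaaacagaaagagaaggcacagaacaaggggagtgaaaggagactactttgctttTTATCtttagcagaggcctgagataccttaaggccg
Cpox: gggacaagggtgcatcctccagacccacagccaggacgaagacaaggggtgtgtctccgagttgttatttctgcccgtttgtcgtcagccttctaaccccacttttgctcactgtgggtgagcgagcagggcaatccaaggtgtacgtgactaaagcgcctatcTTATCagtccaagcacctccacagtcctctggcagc
Urod: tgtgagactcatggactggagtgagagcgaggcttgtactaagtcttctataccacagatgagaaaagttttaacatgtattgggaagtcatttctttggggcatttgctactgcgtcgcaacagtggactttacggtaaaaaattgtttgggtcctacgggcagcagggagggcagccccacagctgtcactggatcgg

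RefSeq windows of 300 bases (250 before to 50 after the start) were matched for 7 of the 9 genes, in 10 windows. GATAA stood in 3 of the 7 genes: once in *Alas2*, 2 times in *Cpox* and once in 1 of the 2 windows of *Uros*. It stands in 25.4% of all 32851 windows. The *Alas2* window held 6 CpG dinucleotides against a median of 7 over all windows, while those of *Alas1* held 27 and 44. A match is a description of these letters only, and *Alas2* and *Cpox*, which both hold the motif, differed in level through the course.

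In the exon coordinates of the count table (GRCm38), *Alas2* (ENSMUSG00000025270) spans positions 150547375 to 150570638 of chromosome X, *Alas1* (ENSMUSG00000032786) 106233455 to 106248654 of chromosome 9 and *Slc25a37* 69241848 to 69285112 of chromosome 14. This start of *Alas2* differs from its RefSeq start, from which the promoter stretch was counted. All values below are sums over the exons of a gene. Libraries held 15721866 to 52056896 counts. Levels are given as CPM, counts scaled to a common library size and normalized by the trimmed mean of M values (TMM), and where genes are compared with each other as CPM per kb of exon. The column name of each library ends in a tag whose meaning is not given in the sources used here. It starts with k in 8 libraries, including all 3 of day 7, and not in the other 5. *Epcam*, a defining TEC gene, ran from 14.03 to 40.1 CPM in the libraries with such a tag and from 99.8 to 155 CPM in those without. Values are therefore also given within each tag group where the tag moves them. The markers of the sorted fraction were present at all times: *Pdgfra* (FBs), *Pecam1* and *Cdh5* (ECs) and *Epcam* and *H2-Aa* (TECs) summed to 1206 to 2140 CPM at steady state and 1082 to 2494 CPM after TBI. *Ptprc*, which encodes CD45, ran from 24.0 to 119 CPM at steady state, from 12.7 to 14.99 CPM at day 1, from 4.07 to 4.54 CPM at day 4 and from 21.6 to 606 CPM at day 7.

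*Alas2* was the most abundant of the 9 genes at steady state and nearly vanished by day 4. Its steady-state level was 3299, 1510, 3471 and 1803 CPM in PBS day 1 replicate 2, PBS day 4 replicate 2, PBS day 7 replicate 1 and PBS day 7 replicate 2. At day 1 it was 966, 287 and 378 CPM, at day 4 it was 5.74, 3.44 and 3.46 CPM, and at day 7 it was 233, 624 and 409.6 CPM. The libraries of day 1, day 4 and day 7 all lay below those of steady state, and those of day 4 lay below all others. Within the library, *Alas2* ranked between 12 and 68 among all genes at steady state, between 130 and 603 at day 1, between 10922 and 11651 at day 4 and between 139 and 729 at day 7. The day 4 levels rest on 89, 196 and 187 counts. Since this set of genes was picked with these results in view, the fold changes of its members are a description without a test. Relative to steady state, the fitted log2 fold change of *Alas2* was -2.21 ± 0.65 (SE) at day 1, -9.24 ± 1.595 at day 4 and -2.58 ± 0.70 at day 7, in a fit over 13 libraries. In bulk libraries, fewer red cell precursors and less *Alas2* RNA per cell cannot be told apart.

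*Slc25a37*, the mitochondrial iron carrier, had already lost most of its level at day 1. It stood at 172, 76.7, 217 and 122 CPM at steady state, at 13.6, 13.9 and 15.1 CPM at day 1, at 4.90, 3.44 and 3.295 CPM at day 4 and at 30.9, 84.8 and 57.3 CPM at day 7. The 3 day 1 libraries were nearly equal and lay below every steady-state library, and the day 7 libraries overlapped with steady state. On the log2 scale the fitted change from steady state was -3.37 ± 0.70 at day 1, -5.26 ± 0.95 at day 4 and -1.35 ± 0.46 at day 7. Its widely expressed relative *Slc25a28* (mitoferrin 2) ran between 3.56 and 14.1 CPM in all 13 libraries and was called in none of the 6 comparisons. Per kb, *Slc25a37* was 2.51 to 6.85 times the level of *Slc25a28* at steady state and 0.144 to 0.234 times at day 4.

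*Fech*, which closes the path, fell at day 1 and stayed near that level at day 4. It was 613, 379.8, 719.9 and 436 CPM at steady state, 58.7, 162 and 162 CPM at day 1, 151, 83.7 and 103 CPM at day 4 and 238, 219 and 264 CPM at day 7. Every library after TBI lay below every steady-state library, and the lowest value was that of day 1 replicate 1. The fitted log2 change from steady state was -2.07 ± 0.53 at day 1, -2.26 ± 0.55 at day 4 and -1.16 ± 0.43 at day 7. At day 4, *Fech* was 38.7 ± 11.9 CPM per kb (SD, n = 3), above *Alas2* at 1.75 ± 0.551 CPM per kb.

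**Figure D1:**
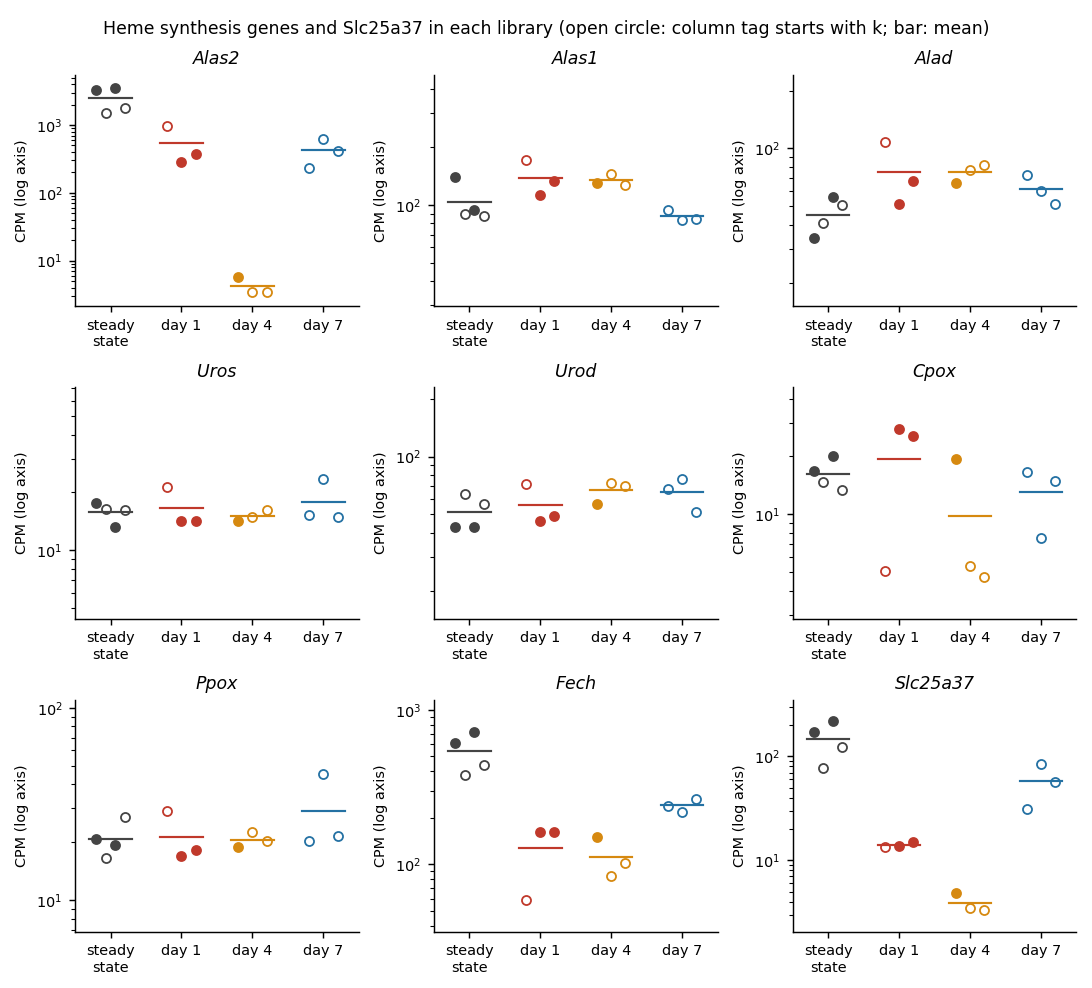
Levels of the 9 genes in each library, as CPM on a log axis, by condition (4 steady-state libraries, 3 at each day). Open circles are libraries whose column tag starts with k, and bars are means. *Alas2*, *Slc25a37* and *Fech* drop after TBI, with *Alas2* at 3.44 to 5.74 CPM at day 4, while *Uros*, *Urod* and *Ppox* overlap between all conditions.

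The ubiquitous enzyme of the first step did not follow *Alas2*. *Alas1* was 140, 89.4, 94.1 and 87.7 CPM at steady state, 171, 112 and 133 CPM at day 1, 129.6, 145 and 127 CPM at day 4 and 94.0, 83.1 and 84.4 CPM at day 7. Its libraries of day 1 and day 4 overlapped with steady state, and all day 7 libraries lay below all of day 1 and day 4. The fitted log2 change from steady state was 0.43 ± 0.23 at day 1, 0.38 ± 0.23 at day 4 and -0.24 ± 0.22 at day 7, and that of day 7 against day 1 was -0.67 ± 0.27. Among libraries with a k tag, *Alas1* was 1.93 times the steady-state mean at day 1, in day 1 replicate 1 alone, and 1.54 times at day 4. Among those without, it was 1.05 times at day 1 and 1.11 times at day 4, the latter in day 4 replicate 1 alone. The size of this difference varied between the tag groups, with a single library behind the tagged day 1 and the untagged day 4 value.

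*Alad*, the second enzyme of the path, was 34.0, 40.8, 55.6 and 50.7 CPM at steady state, 108, 51.3 and 67.4 CPM at day 1, 66.2, 77.5 and 81.6 CPM at day 4 and 72.4, 60.1 and 51.5 CPM at day 7. All 3 day 4 libraries lay above all 4 of steady state, with a log2 fold change of 0.73 ± 0.30, and the other days overlapped. *Uros*, *Urod* and *Ppox* overlapped between all pairs of conditions. *Urod* ran from 43.1 to 76.2 CPM, *Uros* from 13.3 to 23.4 CPM and *Ppox* from 16.5 to 45.4 CPM over the 13 libraries. The highest *Uros*, *Urod* and *Ppox* values were all in day 7 replicate 2, the library with 606 CPM of *Ptprc*. Of the exonic length, 17.5% of *Ppox* overlaps *B4galt3* and 15.5% of *Alas2* overlaps *Apex2* and *Mir3620*, and the counting is not stated to use strand, so reads there cannot be told apart.

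*Cpox* differed widely between libraries of the same day at days 1 and 4. It was 16.8, 14.7, 20.1 and 13.4 CPM at steady state, 5.06, 27.8 and 25.5 CPM at day 1, 19.4, 5.39 and 4.70 CPM at day 4 and 16.5, 7.56 and 14.9 CPM at day 7. Its 8 libraries with a k tag (4.70 to 16.5 CPM) all lay below the 5 without (16.8 to 27.8 CPM). *Fech* was likewise lower in the tagged libraries of steady state, day 1 and day 4.

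The direction of the 3 genes that dropped was the same in both tag groups at days 1 and 4, while the size differed. Only day 1 replicate 1 carried the tag at day 1, and only day 4 replicate 1 lacked it at day 4. The tagged day 1 and untagged day 4 values of all 3 genes therefore rest on a single library each. Within the tag groups, the mean of *Fech* at steady state was 6.95 times (tag) and 4.11 times (no tag) that of day 1 and 4.38 and 4.42 times that of day 4. *Alas2* at steady state was 1.71 times (tag, 1 library at day 1) and 10.2 times (no tag) the level of day 1, and 479.9 and 589 times that of day 4. *Slc25a37* was 7.34 and 13.4 times the day 1 level and 29.6 and 39.7 times the day 4 level. At day 7 all libraries carry the tag, and against the 2 tagged steady-state libraries the steady-state mean was 3.92 times that of day 7 for *Alas2*, 1.70 times for *Fech* and 1.73 times for *Slc25a37*.

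**Figure D2:**
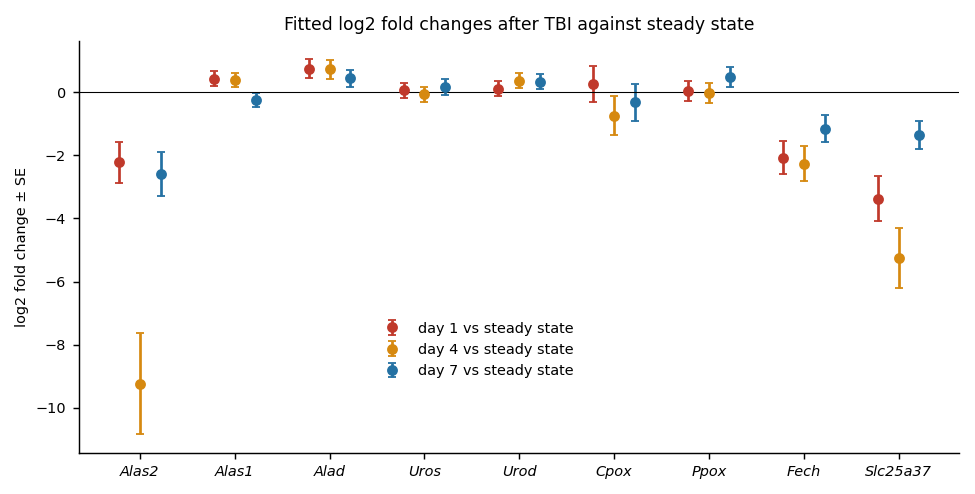
Fitted log2 fold changes of the 9 genes at day 1, day 4 and day 7 against steady state (points) with their SE (bars), from a fit over 13 libraries. *Alas2* reaches -9.24 at day 4, *Slc25a37* and *Fech* lie below 0 at all 3 days, and the other 6 genes stay between -0.74 and 0.74.

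Across all genes, 2.35% were called at day 1, 0.29% at day 4 and 0.005% at day 7 against steady state (adjusted p of 0.05 or less). Among the 9 genes, *Alas2*, *Slc25a37* and *Fech* were called lower at day 1, where 0.671% of all genes were called lower, and the same 3 were called lower at day 4, where 0.24% were. At day 7 edgeR called none of them, 3 had an unadjusted p under 0.05, and DESeq2 called 3. Against day 1, *Alas2* and *Slc25a37* were called lower at day 4 (1.07% of all genes called lower) and *Slc25a37* was called higher at day 7 (3.68% called higher). Against day 4, *Alas2* and *Slc25a37* were called higher at day 7 (2.77% called higher). Nothing is read from these counts, because the genes were picked from the same contrasts, and the comparisons share libraries. In either direction, 1.43% of all genes were called at day 4 against day 1, 8.13% at day 7 against day 1 and 3.9% at day 7 against day 4. Libraries that did not overlap were more common than calls. All libraries after TBI lay below steady state in *Alas2*, *Slc25a37* and *Fech* at days 1 and 4 and in *Alas2* and *Fech* at day 7, and this held for 8.56%, 8.22% and 4.67% of all genes at the 3 days. *Alad* lay above steady state in all day 4 libraries, as did 6.44% of all genes, and 0 of the 9 genes did so at day 1, as did 7.25% of all genes. In either direction the share of all genes was 15.8% at day 1, 14.7% at day 4 and 7.49% at day 7. Between days, *Alas2* and *Slc25a37* were lower in all libraries at day 4 than at day 1 (13.7% of all genes, and 26.3% in either direction), *Slc25a37* and *Fech* were higher and *Alas1* lower at day 7 than at day 1 (12.7% and 14.8%), and *Alas2*, *Slc25a37* and *Fech* were higher and *Alas1* lower at day 7 than at day 4 (12.2% and 14%). In either direction the libraries of 27.5% of all genes did not overlap at day 7 against day 1, and those of 26.2% at day 7 against day 4. The median log2 fold change of the 9 genes was 0.06 at day 1, -0.07 at day 4 and -0.24 at day 7, beside -0.10, -0.13 and 0.00 over all genes tested.

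Single libraries decided some of these calls. The *Alas2* call at day 1 was lost without PBS day 1 replicate 2, PBS day 7 replicate 1, PBS day 7 replicate 2, day 1 replicate 2, day 1 replicate 3, day 4 replicate 2, day 4 replicate 3 or day 7 replicate 3, with log2 fold changes between -2.34 and -1.91. The *Fech* call at day 4 was lost without PBS day 1 replicate 2, PBS day 7 replicate 1 or any 1 of the day 4 libraries (-2.40 to -1.97). The *Slc25a37* call at day 4 against day 1 was lost without PBS day 7 replicate 2, any 1 library of day 1 or day 4, or day 7 replicate 3 (-2.02 to -1.78), and that at day 7 against day 1 without day 1 replicate 1 (1.99). Without PBS day 4 replicate 2, *Alas2* was called lower at day 7 (-2.76). Without PBS day 1 replicate 2, *Alas1* was called lower at day 7 than at day 1 (-0.73), and without day 1 replicate 1, *Fech* was called higher at day 7 than at day 4 (1.099). The calls of *Alas2* and *Slc25a37* at day 4 against steady state, and of *Slc25a37* and *Fech* at day 1, held without any 1 library.

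The balance of the 2 first-step enzymes turned over at day 4. Per kb of exon, *Alas2* was 60.5, 43.4, 94.8 and 52.8 times the level of *Alas1* at steady state, 14.5, 6.59 and 7.29 times at day 1, and 6.37, 19.3 and 12.5 times at day 7. At day 4, *Alas1* was instead 8.78, 16.4 and 14.3 times the level of *Alas2*. The 4 steady-state libraries lay above all others, and day 1 and day 7 overlapped. Of the summed level per kb of the 9 genes, *Alas2* made up 74.3% to 81.5% at steady state, 46.4% to 72.9% at day 1, 1.03% to 1.62% at day 4 and 34.9% to 58.6% at day 7.

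The order of the 9 genes per kb changed with it. At steady state it ran from *Alas2* (1049 ± 419 CPM per kb, SD, n = 4) and *Fech* (185 ± 54.2) through *Slc25a37* (24.4 ± 10.1), *Alad* (24.2 ± 5.18), *Urod* (19.95 ± 3.98) and *Alas1* (16.7 ± 4.05) to *Cpox* (5.10 ± 0.916), *Ppox* (4.62 ± 0.987) and *Uros* (4.44 ± 0.525). The ranges of neighbours from *Slc25a37* to *Alas1* overlapped, as did those from *Cpox* to *Uros*. At day 4 the order began with *Alad* (40.1 ± 4.27, n = 3) and *Fech* (38.7 ± 11.9), whose ranges overlapped, followed by *Urod* (25.8 ± 3.49) and *Alas1* (21.7 ± 1.59), which overlapped too. *Cpox* (3.08 ± 2.60) overlapped with *Alas2* below it. The order ended with *Alas2* (1.75 ± 0.551) and *Slc25a37* (0.645 ± 0.148), which did not overlap. At day 1 *Slc25a37* was lowest (2.36 ± 0.138) while *Alas2* still led (226 ± 153). At day 7 *Alas2* (176 ± 81.5) and *Fech* (82.9 ± 7.83) led again.

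*Alas2* and *Slc25a37* did not keep 1 ratio through the course. Per kb, *Alas2* was 48.0, 49.3, 40.1 and 36.9 times *Slc25a37* at steady state and 178, 51.9 and 62.5 times at day 1. It was 2.93, 2.51 and 2.63 times *Slc25a37* at day 4 and 18.9, 18.4 and 17.9 times at day 7. The 4 conditions did not overlap in this ratio, and the day 7 libraries were close to each other. *Alas2* was 58.9, 47.5, 44.8 and 41.7 times the CPM of *Slc4a1*, the anion exchanger of the red cell membrane, at steady state. The ratio was 182, 177 and 273 at day 1 and 6.61, 5.79 and 6.93 at day 7. At day 4 *Slc4a1* was at or under the floor of 3 counts in 1 library, where no ratio is given, and the ratio was 11.1 and 31.2 in the other 2, on 8 and 6 *Slc4a1* counts. Against the beta globin gene *Hbb-bs*, the ratio was 0.106 to 0.177 at steady state, 0.0823 to 0.120 at day 1 and 0.125 to 0.1497 at day 7, and these ranges overlapped between steady state and both days. At day 4 it was 0.50 to 2.28.

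**Figure D3:**
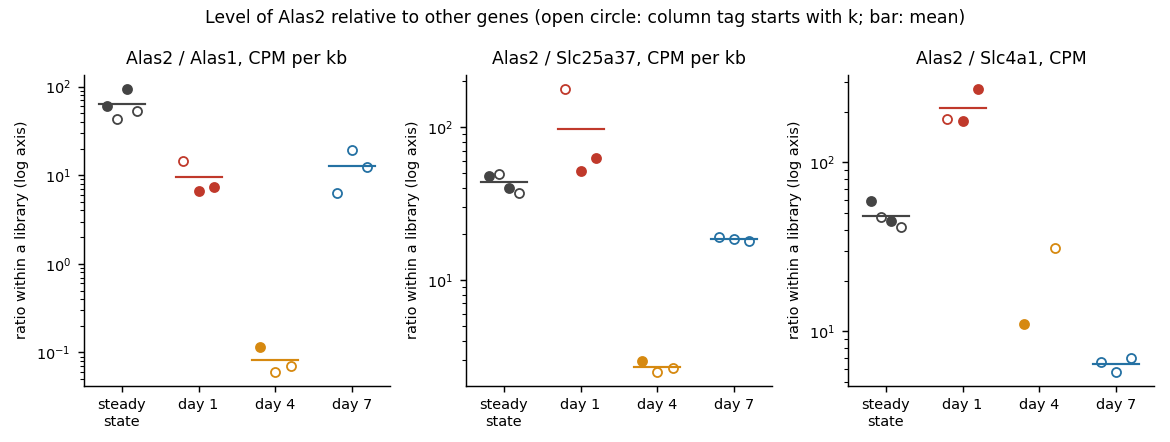
Ratio of *Alas2* to *Alas1*, to *Slc25a37* (both per kb) and to *Slc4a1* (CPM) in each library, on log axes. Open circles are libraries whose column tag starts with k, and bars are means, left out at day 4 for *Slc4a1*, where 1 library had too few counts. The *Alas2* to *Alas1* ratio is under 1 at day 4, and the ratio to *Slc4a1* is 41.7 to 58.9 at steady state and 5.79 to 6.93 at day 7.

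Some erythroid markers fell at days 1 and 4, as *Alas2*, *Slc25a37* and *Fech* did. Of a list of 12 red cell markers, 11 were matched and tested, and their summed level was 77.8 to 175 CPM at steady state, 7.24 to 16.5 CPM at day 1, 3.27 to 4.15 CPM at day 4 and 68.9 to 232 CPM at day 7. In edgeR's quasi-likelihood test, 5 of the 11 fell at day 1 and 6 at day 4 against steady state, none rose, and none was called at day 7 (5 had an unadjusted p under 0.05 and DESeq2 called 2). Among those that fell at day 1 were *Slc4a1* (log2 fold change -4.23 ± 1.03, adjusted p = 0.00547) and *Trim10* (-4.21 ± 0.92, adjusted p = 0.00119). Of all genes, 0.671% were called lower at day 1 and 0.24% at day 4 against steady state. Against day 1, 9 of the 11 markers rose at day 7, where 3.68% of all genes were called higher. That count was 5 without day 1 replicate 1 and 4 without day 1 replicate 2, day 1 replicate 3 or day 7 replicate 2, and the count at day 4 against steady state was 3 without day 4 replicate 3. With the tag family as covariate, these counts were 4 and 3. Which part of the member levels came with these cells was not tested.

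*Alas2* and the erythroid markers took different courses in time. At day 1 the highest summed marker level, 16.5 CPM, was far below the lowest of steady state, 77.8 CPM, while *Alas2* kept 287 to 966 CPM beside a steady-state minimum of 1510.3 CPM. At day 7 the summed markers overlapped with steady state, with a median log2 fold change of 0.37 over the 11 genes, and all 3 *Alas2* values were below the lowest steady-state value. This difference in course was not tested. Over the 13 libraries, r with the mean log2 level of the markers was 0.909 for *Slc25a37*, 0.761 for *Alas2*, 0.712 for *Fech* and -0.630 for *Alas1*, a description of libraries that share conditions.

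**Figure D4:**
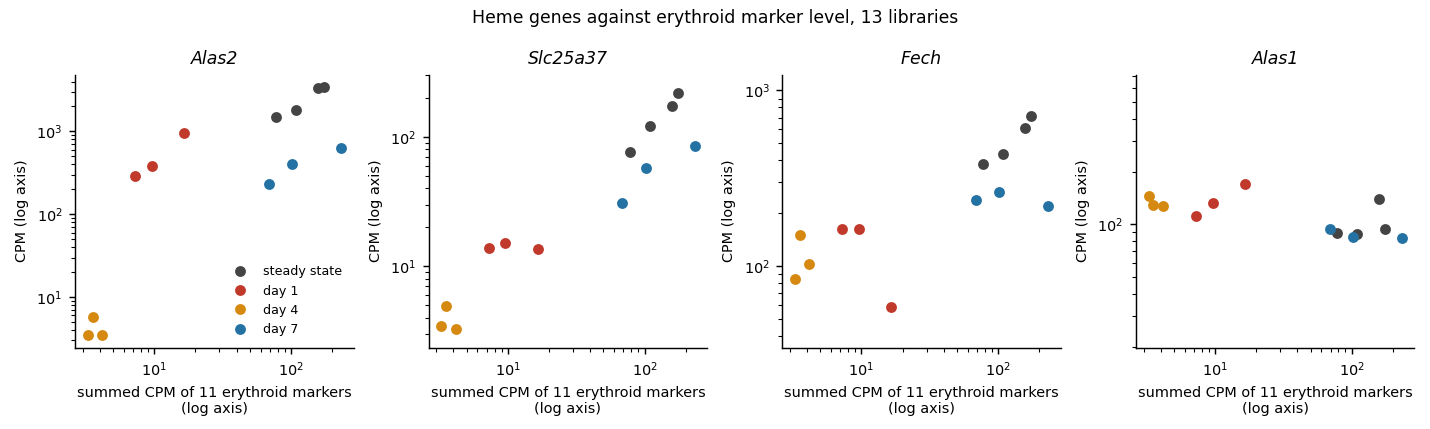
CPM of *Alas2*, *Slc25a37*, *Fech* and *Alas1* (y axes, log) against the summed CPM of 11 erythroid markers (x axes, log) in 13 libraries, coloured by condition. At similar marker levels the day 7 libraries lie below those of steady state for *Alas2*, and the day 1 libraries keep 287 to 966 CPM of *Alas2* at 7.24 to 16.5 CPM of markers. *Alas1* stays between 83.1 and 171 CPM.

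Some thymocyte and proliferation markers were called along the course, and macrophage markers were not. In edgeR's test, 4 of 12 thymocyte markers fell at day 4 against steady state, where 0.24% of all genes were called lower. At day 7, 12 of 12 rose against day 1 and against day 4, where 3.68% and 2.77% of all genes were called higher. Of 8 proliferation markers, 2 fell at day 1 against steady state (0.671% of all genes called lower), and 8 and 7 rose at day 7 against day 1 and day 4. In all day 1 libraries, 8 of the 8 proliferation and 11 of the 12 thymocyte markers lay below steady state (8.56% of all genes). At day 1 the unadjusted p was under 0.05 for 8 and 10 of them, and DESeq2 called 7 and 3. Of 8 macrophage markers, 0 were called in any of the 6 comparisons, with 0 to 3 at an unadjusted p under 0.05 and 0 to 1 called by DESeq2. The 12 thymocyte markers summed to 242 to 767 CPM at steady state, 113 to 148 CPM at day 1, 23.0 to 37.9 CPM at day 4 and 217 to 4963 CPM at day 7. The 8 proliferation markers summed to 67.3 to 185 CPM at steady state, 15.9 to 24.1 CPM at day 1, 26.4 to 37.0 CPM at day 4 and 74.0 to 1189.7 CPM at day 7. The 8 macrophage markers, a cell type that takes up red cells, summed to 65.6 to 178 CPM at steady state and 55.2 to 180 CPM after TBI. The 5 megakaryocyte and platelet markers were at 8.14 to 16.6 CPM at steady state and 19.0 to 27.9 CPM at day 1, when *Ppbp*, a platelet chemokine gene, rose (log2 fold change 2.61 ± 0.66, adjusted p = 0.00745, edgeR). These lists share libraries with the heme genes, and their part in the member levels was not tested.

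The genes whose levels over the 13 libraries were most like *Alas2* were those of hemoglobin. Of all tested genes outside the set, the highest by Pearson's r of log2(CPM + 0.5) included *Hba-a2* (0.990), *Hbb-bs* (0.988), *Hba-a1* (0.988) and *Hbb-bt* (0.982). The globin pairs are near-identical copies, so their counts are uncertain one by one. For *Slc25a37* they included *Epb41* (0.981), which encodes a protein of the red cell membrane skeleton, *Bpgm* (0.966), *F930017D23Rik* (0.962) and *Trim10* (0.961). For *Alas1* they were *Gm28710* (0.970), *Pinlyp* (0.956), *H2-DMb1* (0.955), *Fabp12* (0.945) and *Trarg1* (0.945). These correlations are over 13 libraries that share conditions and are a description. With deviations from the condition means in place of levels, 0 of the top 5 genes for *Alas2*, 0 of those for *Slc25a37* and 1 of those for *Alas1* stayed among the top 5. Within the set, r was 0.896 for *Alas2* and *Slc25a37*, 0.881 for *Fech* and *Slc25a37*, 0.668 for *Alas2* and *Fech* and -0.376 for *Alas2* and *Alas1*. With deviations from the condition means, it was 0.720, 0.432, -0.162 and 0.508.

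Genes around the path were taken as 4 lists. In the list of heme and precursor transport in mitochondria, edgeR called 0 of 10 genes against steady state on any day, with 4 unadjusted p under 0.05 at day 1, 1 at day 4 and 0 at day 7, and DESeq2 called 1, 1 and 0. *Pgrmc1*, a partner of ferrochelatase and the gene of highest mean CPM in the list over the 13 libraries, ran from 240.4 to 321 CPM at steady state and from 165 to 221 CPM at day 1. The median log2 fold change of the list was -0.30 at day 1 and -0.11 at day 4.

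In the list of iron-sulfur cluster assembly, 1 of 13 genes, *Isca1*, fell at day 1 and day 4 against steady state. Of all genes, 0.671% and 0.24% were called lower there. *Isca1* encodes a mitochondrial assembly factor, and it was 201, 180.3, 209 and 181 CPM at steady state, 77.9, 74.9 and 78.0 CPM at day 1, 92.5, 107 and 106 CPM at day 4 and 116, 92.0 and 87.6 CPM at day 7. All 9 libraries after TBI lay below all 4 of steady state. The log2 fold change was -1.33 ± 0.29 at day 1 (adjusted p = 0.000916), -0.92 ± 0.24 at day 4 (adjusted p = 0.0438) and -0.97 ± 0.24 at day 7 (adjusted p = 0.111, edgeR). The day 1 call held under all 20 alternatives, and that of day 4 was lost under 14 of 20, with log2 fold changes between -0.97 and -0.74. These included leaving out any 1 steady-state library but PBS day 4 replicate 2, any 1 day 4 library, or replicate 2 or 3 of day 1 or day 7. *Hspa9*, with the highest mean CPM of the list over the 13 libraries, ran from 182 to 307 CPM in all 13 libraries and was not called.

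In the list of iron uptake, storage and export, 2 of 14 genes rose at day 1, when 1.68% of all genes were called higher, and both import metal ions: *Slc39a14* (ZIP14) and *Slc11a2* (DMT1). *Slc39a14* was 52.8, 193.8, 53.6 and 77.4 CPM at steady state and 644, 551 and 346 CPM at day 1, and 52.6 to 98.7 CPM at days 4 and 7. All day 1 libraries lay above all others (log2 fold change 2.44 ± 0.61, adjusted p = 0.00628), and *Slc39a14* fell from day 1 to day 4 (-2.56 ± 0.66, adjusted p = 0.0143) and to day 7 (-2.91 ± 0.70, adjusted p = 0.00457). Of all genes, 1.07% were called lower at day 4 than at day 1 (0.355% higher), and 4.45% were called lower at day 7 than at day 1. *Slc11a2* was 31.8, 39.4, 27.5 and 26.8 CPM at steady state and 90.2, 56.0 and 50.2 CPM at day 1 (log2 fold change 1.06 ± 0.31, adjusted p = 0.0351). The *Slc11a2* call was lost under 8 of 20 alternatives, among them leaving out PBS day 1 replicate 2 (1.12), PBS day 7 replicate 1 (1.07), PBS day 7 replicate 2 (0.99), day 1 replicate 1 (0.76), day 1 replicate 2 (1.16), day 4 replicate 2 (1.06) or day 4 replicate 3 (1.06). The *Slc39a14* call at day 1 against steady state was lost with only the 2 conditions compared (2.39). Its call against day 4 was lost without any 1 day 4 library (-2.66 to -2.48). *Fth1*, the ferritin heavy chain gene and the most abundant of the list, ran from 1653 to 5351 CPM and was not called in any comparison.

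*Tfrc*, the transferrin receptor through which red cell precursors take up iron, was 4.52, 4.48 and 4.20 CPM at day 4 and 6.13, 70.2 and 19.4 CPM at day 7, with 7.07 to 22.7 CPM at steady state. *Tfrc* was the only one of the 14 genes called at day 7 against day 4, where 2.77% of all genes were called higher and 1.13% lower. The rise from day 4 to day 7 (log2 fold change 2.86 ± 0.89, adjusted p = 0.0404) was lost under 11 of 21 alternatives. It was 1.45 without day 7 replicate 2, the library with most *Ptprc*, and the call was also lost without PBS day 7 replicate 1 (2.72), day 1 replicate 2 (2.86), day 1 replicate 3 (2.86), day 4 replicate 1 (2.74), day 4 replicate 2 (2.87), day 4 replicate 3 (2.82) or day 7 replicate 3 (2.97).

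In the list of heme breakdown, export and sensing, 1 of 10 genes rose at day 1, when 1.68% of all genes were called higher. This was *Hmox1*, which encodes the inducible enzyme that degrades heme. It was 35.1, 39.6, 20.2 and 20.7 CPM at steady state, 113, 64.4 and 67.1 CPM at day 1, 39.0, 54.1 and 51.1 CPM at day 4 and 25.4, 19.6 and 19.3 CPM at day 7. All day 1 libraries lay above all others. The log2 fold change was 1.498 ± 0.40 at day 1 (adjusted p = 0.0149) and -1.93 ± 0.47 from day 1 to day 7 (adjusted p = 0.00576, edgeR). The day 1 call was lost without PBS day 7 replicate 2 (1.37) or day 1 replicate 1 (1.19), and with only the 2 conditions compared (1.44). That of day 7 against day 1 held under all 21 alternatives. *Nfe2l2*, with the highest mean CPM of the list over the 13 libraries, ran from 153 to 304 CPM and was not called.

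**Figure D5:**
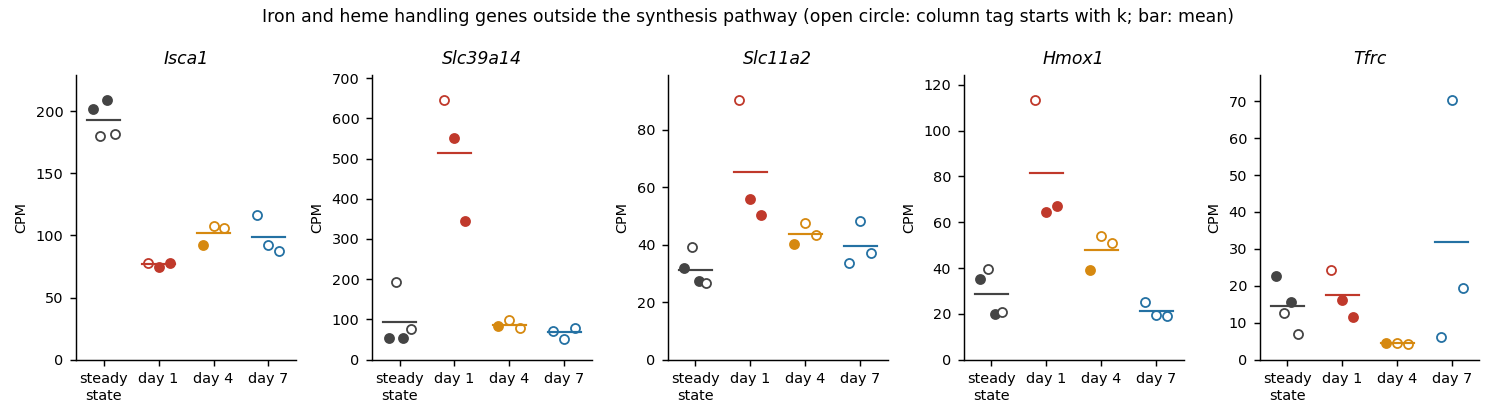
CPM of 5 iron and heme handling genes in each library by condition. Open circles are libraries whose column tag starts with k, and bars are means. *Isca1* drops from 180.3 to 209 CPM at steady state to 74.9 to 78.0 CPM at day 1, *Slc39a14*, *Slc11a2* and *Hmox1* peak at day 1, and *Tfrc* is at 4.20 to 4.52 CPM at day 4.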

How the data were processed

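RNA-seq was analysed for 13 libraries of CD45− thymic cells: 4 at steady state and 3 each at 1, 4 and 7 days after SL-TBI. The authors trimmed reads with Trimmomatic (0.38), aligned them with STAR (2.7.0e) to GRCm38.p5 (mm10) and counted them with featureCounts (1.6.3), and the deposited values are raw counts per gene. Groups came from the sample labels, and 0 columns of per-sample values were left out. Genes that passed filterByExpr by condition were tested with edgeR (4.0.16, R 4.3.3): TMM factors, 1 quasi-likelihood fit over all 13 libraries, and Benjamini-Hochberg adjusted p-values over the 19984 genes tested, called at 0.05. CPM uses the same TMM factors. SE is the fold change over the normal quantile of its p-value. Correlations used log2(CPM + 0.5), and levels per kb the exonic length. The fit was tested on simulated data.

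The 9 genes and all gene lists were chosen with earlier results of these data known. Beside the members, the text names for *Alas2*, *Slc25a37* and *Alas1* genes among the 5 of highest r, and from each list the gene of highest level and up to 3 called genes with the largest fold change, plus defining markers. *Slc25a28*, *Slc25a39*, *Abcb10*, *Snx3* and *Ptprc* beside the heme genes were named after their values were seen. Alternatives were RLE scaling, DESeq2 (1.42.0), no filter, only the 2 conditions compared, the tag family as covariate, thinned counts, each library left out and a replicate block. A covariate for tags starting with k, values within tag groups, and alternatives for markers and lists were chosen after seeing the data. Replicate numbers did not pair the libraries. Results for some genes are not reported here.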

Additional observations from a re-analysis of the deposited data

Results flagged for a closer look

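*Alas1* stood apart in 1 steady-state library. PBS day 1 replicate 2 held 140 CPM, and the other 3 held 87.7 to 94.1 CPM, a gap that passed Dixon's 95% limit for 4 samples. In all, 12 steady-state values were examined in this way, the levels of the 9 genes and 3 ratios between them, and 1 passed, where chance flags about 1 in 20. The same library had the highest *Ptprc* (119 CPM) of steady state, and the part of this in its *Alas1* level was not tested. Without it, *Alas1* was called lower at day 7 than at day 1 (log2 fold change -0.73, edgeR).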

How the results depend on the processing

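Of 1107 fold changes of the 9 genes under alternatives, 0 called values changed sign, 29 lost their call and 14 gained one. The number of genes called at day 1 against steady state was 469, and it was 228 with only the 2 conditions, 1066 with the tag family as covariate, 1487 with a covariate for tags starting with k, 1381 by DESeq2 and 252 to 797 with 1 library left out (252 without day 1 replicate 1, 797 without PBS day 4 replicate 2). At day 4 against steady state it was 58, and 250 with no filter, 146 with only the 2 conditions, 33 with the tag family, 644 by DESeq2 and 19 to 226 with 1 library left out (19 without day 4 replicate 2, 226 without day 7 replicate 1). At day 7 against steady state it was 1, and 627 with no filter, 1081 by DESeq2, 0 with only the 2 conditions, with the tag family, with the k tag or with thinned counts, and 0 to 622 with 1 library left out (622 without day 7 replicate 1, 220 without PBS day 4 replicate 2). At day 4 against day 1 it was 285, and 163 with the tag family, 603 with the k tag, 949 by DESeq2 and 87 to 362 with 1 library left out (87 without day 4 replicate 3). At day 7 against day 1 it was 1625, and 2707 with the k tag, 2940 by DESeq2 and 472 to 2043 with 1 library left out (472 without day 1 replicate 1). At day 7 against day 4 it was 779, and 1265 with no filter, 394 with only the 2 conditions, 1625 with the k tag, 1919 by DESeq2 and 15 to 1507 with 1 library left out (15 without day 4 replicate 2, 1507 without day 7 replicate 1).

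Of the 9 genes, 3 were called at day 1 and 1 with only the 2 conditions (*Alas2* at -2.29 and *Fech* at -2.08 lost their call), and 2 to 3 with 1 library left out. At day 4 it was 3, and 2 to 3 with 1 library left out. At day 7 it was 0, and 2 with no filter, 3 by DESeq2 and 0 to 1 with 1 library left out. At day 4 against day 1 it was 2, and 1 with the tag family (*Slc25a37* at -1.53) and 1 to 2 with 1 library left out. At day 7 against day 1 it was 1, and 2 with the tag family, with the k tag (*Fech* at 1.64 in both) or by DESeq2 (*Alas1* at -0.71), and 0 to 2 with 1 library left out. At day 7 against day 4 it was 2, and 2 to 3 with 1 library left out. The cause of these shifts was not tested.

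Libraries with the same replicate number did not deviate together (mean r -0.18 over 9 pairs, 0.079 over 18 other pairs). With the replicate number as a block over the 9 libraries after TBI, 56 genes were called at day 4 against day 1, 640 at day 7 against day 1 and 0 at day 7 against day 4, and 1, 0 and 0 of the 9 genes were. At day 7 against day 4 the block gave log2 fold changes of 6.77 for *Alas2* and 3.84 for *Slc25a37* (adjusted p = 0.0604 for each, edgeR), and for *Slc25a37* -1.87 at day 4 and 1.97 at day 7 against day 1. Of the erythroid markers, 4 rose at day 7 against day 1 with the block. The columns of the steady-state libraries carry no replicate number of the labels, so no block was fitted there. RLE scaling moved mean CPM by at most 3.26%, and the median log2 fold change of all genes from -0.13 to -0.05 at day 4 and from 0.11 to 0.05 at day 7 against day 4. *Alas2* rests on 89 to 196 counts in the day 4 libraries, and 3 to 5 of the 11 erythroid markers were at 3 counts or fewer there.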

Other observations

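*Cpox* and *Fech* were low together in the same libraries, across days, and so were genes of the other lists, some of them outside the mitochondrion. Day 1 replicate 1, day 4 replicate 2 and day 4 replicate 3 held 5.06, 5.39 and 4.70 CPM of *Cpox*, and the other 10 libraries held 7.56 to 27.8 CPM. *Fech* was 58.7, 83.7 and 103 CPM there and 151 CPM or more elsewhere. *Abcb10*, a transporter of the inner mitochondrial membrane that binds mitoferrin 1, was 6.84, 10.99 and 13.3 CPM there and 26.2 to 47.0 CPM elsewhere. *Slc25a39*, the mitochondrial glutathione carrier, was 79.7, 70.3 and 79.8 CPM there and 158 to 411 CPM elsewhere. *Snx3* of the iron uptake list, whose protein lies outside the mitochondrion, had lowest values of 79.0 CPM at day 1 and 111 CPM at day 4. It held 187 CPM or more at steady state and 194 CPM or more at day 7. Other genes of the path were not low in these libraries: *Ppox* was 28.9, 22.6 and 20.2 CPM there, and *Alas1* was 171, 145 and 127 CPM. All 3 libraries carry a tag that starts with k, as do 5 others. With deviations from the condition means, r between *Cpox* and *Fech* was 0.872 over the 13 libraries. These libraries and genes were picked after their values were seen.

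Among libraries of 1 condition, *Slc25a37* went with the markers of several cell types. With deviations from the condition means, r with the mean log2 level of the erythroid markers was 0.785 for *Ppox*, 0.758 for *Slc25a37* and 0.739 for *Alas2*. It was 0.690 for *Uros* and -0.054 for *Fech*. For *Slc25a37* it was higher with *Ptprc* (0.884), the macrophage markers (0.819) and the thymocyte markers (0.809), and for *Alas2* these were 0.703, 0.699 and 0.655. Day 7 replicate 2 held the highest *Ppox* (45.4 CPM) and *Uros* (23.4 CPM) of all libraries, beside the highest *Ptprc* (606 CPM).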
